A study of Mus musculus with 3 samples.

Results

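Neurogenic bHLH and pallial transcription factors were examined in the neocortex of mice at postnatal day 13. The genes are Emx1, Emx2, Pax6, Neurog2, Eomes, Neurod1, Neurod2 and Neurod6, 8 in all, and a probe set counted for a gene when the platform annotation gave it that symbol and no other. By this rule 7 genes had 1 probe set each, of 14938 single-gene probe sets for 14806 genes on the arrays, and Emx1 is not analysed here. Neocortical total RNA came from 3 wild-type mice of CD1, an outbred stock, with 1 array per animal and no other treatment, genotype or age, so the data hold levels and the spread between animals and no contrast. The labels do not give the sex, litter or pooling of the animals.

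The pallium is the dorsal part of the forebrain that gives rise to the neocortex and hippocampus. In the mouse embryo Emx2 and Pax6 are expressed in opposing gradients in its progenitors and help set the areas of the cortex. Pax6 activates Neurog2, a proneural basic helix-loop-helix (bHLH) factor that commits progenitors to the glutamatergic fate. Eomes, also called Tbr2, then marks intermediate progenitors, and Neurod1, Neurod2 and Neurod6 follow as their daughters leave the cell cycle and mature. Neurod2 and Neurod6 stay on in many glutamatergic neurons of the postnatal cortex. In the mouse, generation of neocortical projection neurons ends before birth, so these arrays read the factors after the process they are best known for.

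The proteins of the Neurog and Neurod families bind the E-box, the sequence CANNTG, and in the mouse favour its forms CAGATG and CATATG. The 250 bases before the annotated start of the Neurod genes are shown because the 3 family members differed in how the mice were spread around their means. They are RefSeq sequences of build GRCm38.p6 on the minus strand, at chr2:79456637-79456886 for Neurod1, chr11:98329646-98329895 for Neurod2 and chr6:55681264-55681513 for Neurod6, written 5′ to 3′ with every CANNTG in capitals.
Neurod1: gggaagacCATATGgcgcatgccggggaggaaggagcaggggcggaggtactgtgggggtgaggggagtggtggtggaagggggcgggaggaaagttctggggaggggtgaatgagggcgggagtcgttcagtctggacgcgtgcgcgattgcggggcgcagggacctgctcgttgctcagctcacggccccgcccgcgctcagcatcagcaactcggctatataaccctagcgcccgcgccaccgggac
Neurod2: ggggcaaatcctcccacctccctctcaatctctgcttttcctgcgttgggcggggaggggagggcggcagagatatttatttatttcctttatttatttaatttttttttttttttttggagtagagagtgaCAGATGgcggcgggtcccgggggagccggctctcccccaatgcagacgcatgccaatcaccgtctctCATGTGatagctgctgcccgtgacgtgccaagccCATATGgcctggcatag
Neurod6: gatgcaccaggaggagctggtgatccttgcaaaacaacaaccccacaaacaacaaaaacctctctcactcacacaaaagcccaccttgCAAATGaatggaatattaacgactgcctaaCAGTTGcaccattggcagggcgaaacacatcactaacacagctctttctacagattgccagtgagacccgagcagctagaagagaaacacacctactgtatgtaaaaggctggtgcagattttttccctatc
Neurod1 held 1 E-box, a CATATG, and Neurod2 held 3, of which 1 was CATATG and 1 CAGATG. Neurod6 held 2, and neither was of these forms on either strand. Over all 32851 promoters of the same length, 66.2% held a CANNTG, 14.4% a CAGATG or its reverse complement CATCTG, and 3.46% a CATATG, which like CANNTG is its own reverse complement. The windows of Neurog2, Emx2 and Eomes held 0 E-boxes, as did 1 of the Pax6 windows, while the other Pax6 window held 1, a CAAATG, and that of Emx1 held 1, a CATGTG. These are matches of letters in short windows, and binding was not measured.

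In each of the mice all 7 measured genes exceeded background, as did 74.7% of single-gene probe sets. Background was read from 947 probe sets for odorant, pheromone and trace amine receptors, which have no known role in cortex, and the limit, their 95th percentile on each array, stood at intensities of 116, 105 and 103 in mice 1 to 3. The genes fell into a group well clear of the limit, Neurod1, Neurod2, Neurod6 and Pax6, and a group close to it, Neurog2, Eomes and Emx2. Probes differ in brightness for equal amounts of RNA, so each gene is set against the limit and against itself in the other mice, and not against another gene. In whole tissue, fewer cells of a type and less RNA per cell cannot be told apart.

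**Figure D1:**
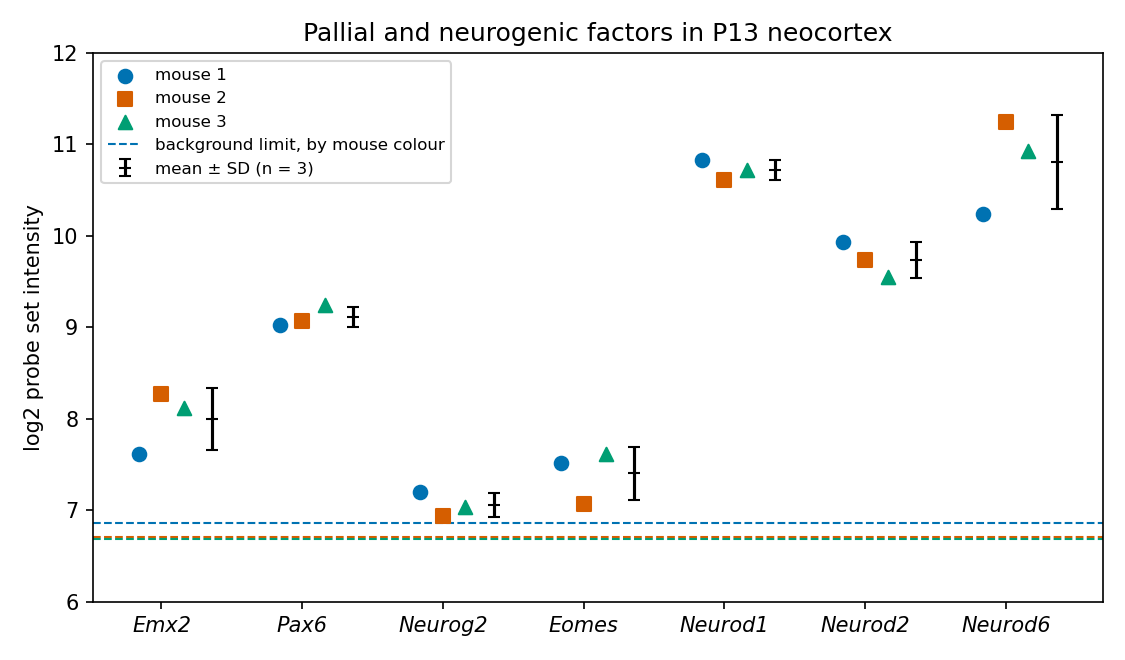
Log2 probe set intensity of the 7 measured genes in each mouse (points), with the mean ± SD over 3 mice (black) and the background limit of each array (dashed). Neurog2 lies just above the limits in each mouse, and Neurod6 has the widest spread, from 10.24 to 11.25.

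Emx2, a homeobox factor of dorsal telencephalic progenitors, was measured at intensities of 196, 308 and 278 in mice 1, 2 and 3. On the log2 scale these are 7.61, 8.27 and 8.12, a mean of 8.0 ± 0.34 (SD, n = 3). Mouse 1 was low and mice 2 and 3 lay close together, 1.58-fold apart at the extremes. The values were 1.68, 2.94 and 2.70 times the limit of their array.

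Pax6, a paired-box and homeobox factor of cortical radial glia, read 523, 537 and 607 in mice 1 to 3, or 9.03, 9.07 and 9.24 on the log2 scale (9.11 ± 0.11, n = 3). The mice lay within 1.16-fold of each other, at 4.49, 5.11 and 5.90 times the limits, and on each array 1 of the 947 receptor probe sets was as bright. Pax6 was thus clear of background in all mice.

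Neurog2, the proneural factor, was the member nearest to background. Its intensities were 147, 122 and 131 in mice 1 to 3, and the log2 values 7.20, 6.93 and 7.04 gave a mean of 7.06 ± 0.13 (n = 3). This was 1.26, 1.16 and 1.28 times the limits, and 32, 37 and 34 of the 947 receptor probe sets were as bright or brighter in mice 1 to 3. Its values barely exceed the background range, and a low level cannot be told apart from background here.

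Eomes, the T-box factor of intermediate progenitors, read 184, 135 and 196 in mice 1 to 3. The log2 values of 7.52, 7.08 and 7.62 gave 7.40 ± 0.29 (n = 3). Mouse 2 was the low one and mice 1 and 3 were near each other. The values were 1.58, 1.28 and 1.91 times the limits, with 22, 33 and 14 receptor probe sets as bright. With the limit set at the 99th percentile of the receptors (intensities of 259, 220 and 209), Neurog2 and Eomes lay under it in every mouse and Emx2 lay under it in mouse 1, so 4 of the 7 genes stayed above on all arrays, against 61% of single-gene probe sets.

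Neurod1, a bHLH factor of late progenitors and young neurons, read 1816, 1567 and 1692 in mice 1 to 3. On the log2 scale these are 10.83, 10.61 and 10.72 (10.72 ± 0.11, n = 3), within 1.16-fold. The values were 15.6, 14.9 and 16.5 times the limits, and 0 receptor probe sets were as bright on any array.

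Neurod2, which acts in maturing glutamatergic neurons, read 978, 851 and 749 in mice 1 to 3, or 9.93, 9.73 and 9.55 on the log2 scale (9.74 ± 0.19, n = 3). Mouse 1 was highest and mouse 3 lowest, 1.31-fold apart, at 8.40, 8.10 and 7.28 times the limits.

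Neurod6, a close relative expressed by many pyramidal neurons of the mouse cortex and hippocampus, read 1213 in mouse 1, 2428 in mouse 2 and 1951 in mouse 3. The log2 values of 10.24, 11.25 and 10.93 gave a mean of 10.81 ± 0.51 (n = 3). Mouse 1 stood apart from mice 2 and 3, and the highest mouse was 2.00-fold above the lowest. The values were 10.4, 23.1 and 19.0 times the limits.

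No gene of the group passed the test for a spread between animals wider than that usual at its level. limma's variance model was fitted over 13822 probe sets above the limit, and 0 of the 7 genes passed at an adjusted p (Benjamini-Hochberg) under 0.05, where 9 probe sets, or 0.0651%, did. At an unadjusted p under 0.05 there was 1 of the 7, Neurod6, where 5.22% of all tested probe sets were. In limma's model Neurod6 had an unadjusted p of 0.00198 and an adjusted p of 0.456. Counting its own, 60 tested probe sets had a p as small or smaller. The adjusted p-values of the other genes in limma's model ran from 0.98 for Emx2 to 0.997 for Neurod1. The median SD of the 7 genes was 0.19, against 0.16 over all tested probe sets.

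Among the 500 probe sets nearest in mean level to Neurod6 (10.72 to 10.89), the median SD was 0.16 and 0 had an SD as large. The same neighbourhood comparison placed the SD of Emx2 above 83.2% of its 500 nearest, that of Eomes above 67.8% and that of Neurod2 above 66.8%. As deposited, the SDs of Neurod1, Pax6 and Neurog2 were above 29.8%, 29.4% and 30.2% of those of their neighbours, but this place depended on scaling. It was 82.2%, 51% and 46.8% after quantile normalization and 53.8%, 62.4% and 48.8% after centring, while that of Neurod2 was 87% and 51.8% and that of Eomes 82.8% and 83.2%. Leaving out the most distant animal narrows a spread by construction, and the size of the drop differed. Without mouse 1 the SD of Neurod6 was 0.22, above 92.8% of its neighbours (adjusted p = 0.991 in limma's model), and that of Emx2 was 0.11, above 38.4%. Without mouse 2 the SD of Eomes was 0.07, above 16.8%. Without mouse 2 the SD of Neurod6 was also slightly lower, at 0.48 against 0.51 with all mice. The remaining omissions widened these SDs. They reached at most 0.71 for Neurod6 and 0.46 for Emx2, both without mouse 3, and 0.38 for Eomes without mouse 1.

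**Figure D2:**
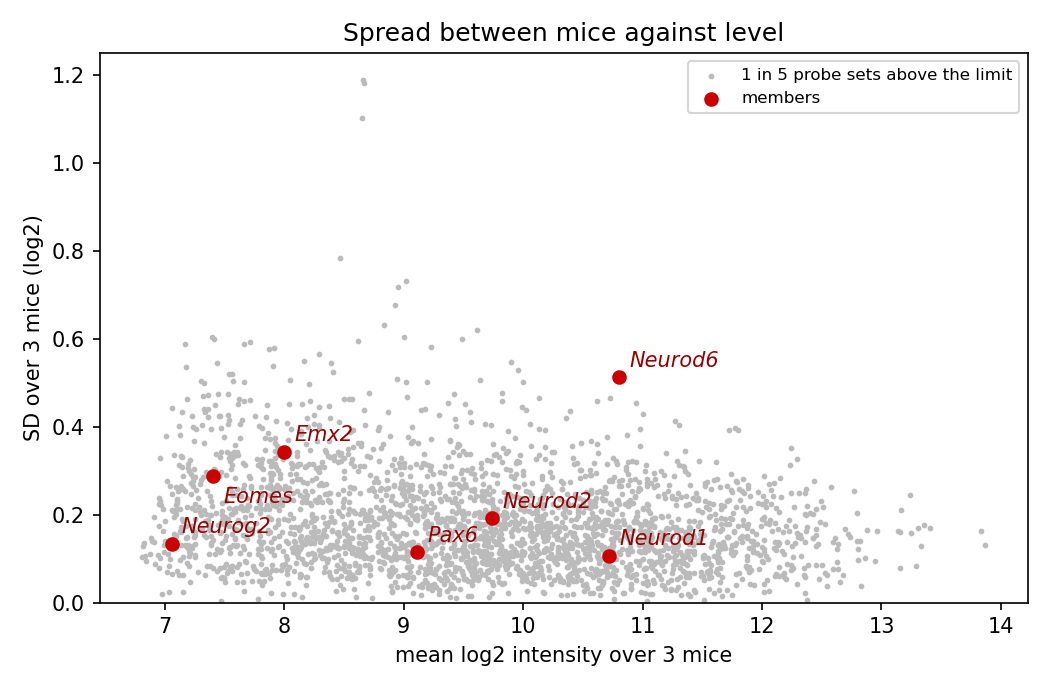
SD over 3 mice against mean log2 intensity, with 1 in 5 probe sets above the background limit in grey and the 7 measured genes in red. Neurod6, at a mean of 10.81 and an SD of 0.51, stands above the grey points of its level, and Neurod1, at nearly the same level, has an SD of 0.11.

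Part of each difference between mice is shared by genes of similar level on an array. Over the 11160 single-gene probe sets above the limit, the median deviation from a gene's own mean was -0.07 in mouse 1, 0.10 in mouse 2 and -0.02 in mouse 3. The median depended on level. Among the 500 probe sets nearest to Neurog2 it was 0.08, 0.04 and -0.12 in mice 1 to 3. Among the 500 nearest to Neurod6 it was -0.11, 0.11 and -0.01. After the median deviation of the 500 level-matched probe sets was taken off, Neurod6 stood at -0.46, 0.33 and 0.13 in mice 1 to 3, a range of 0.79. Emx2 stood at -0.38, 0.18 and 0.20, so that mouse 1 remained the low one and mice 2 and 3 were alike. Eomes stood at 0.05, -0.40 and 0.31, with mouse 2 still low. Neurod2 was at 0.28, -0.10 and -0.18 and Neurod1 at 0.19, -0.21 and 0.02, both highest in the mouse in which Neurod6 was lowest. Neurog2 was at 0.07, -0.16 and 0.10, and Pax6 at -0.04, -0.14 and 0.16.

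**Figure D3:**
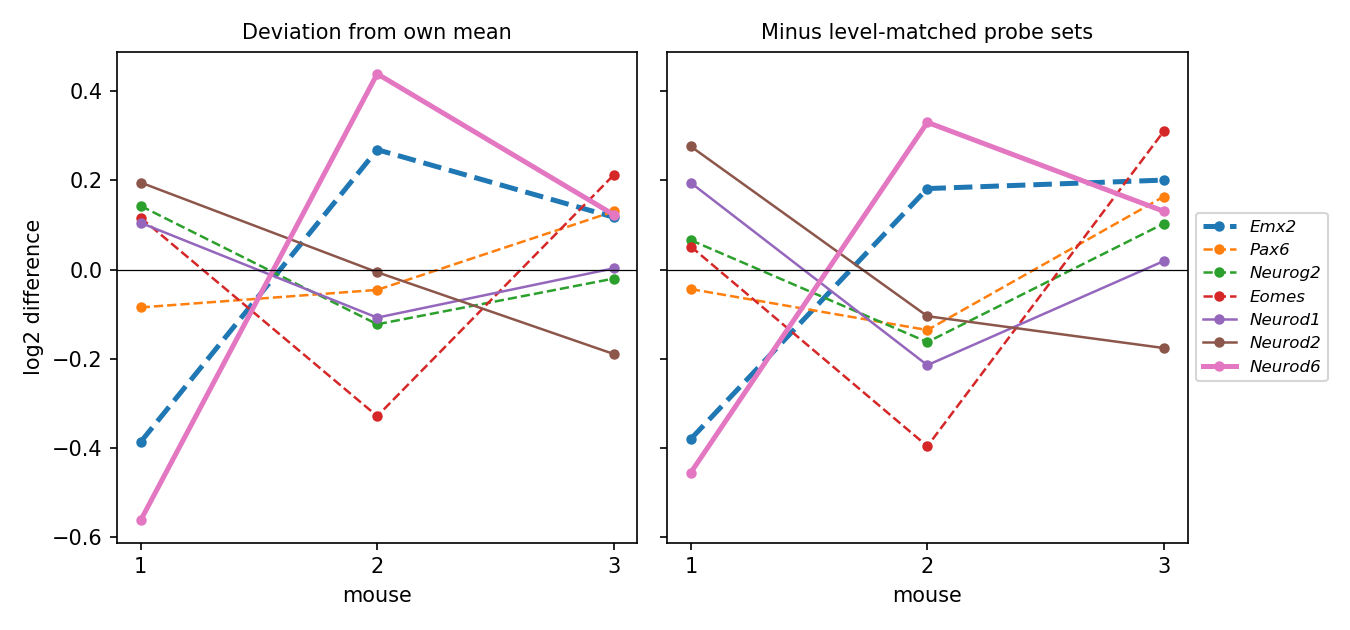
Deviation of each gene from its own mean in mice 1 to 3 (left) and the same after the median deviation of 500 level-matched probe sets was taken off (right), in log2 units, with lines joining the values of a gene and no order among the mice. Neurod6 and Emx2 are low in mouse 1 in both panels, and Eomes is low in mouse 2.

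The genes did not share a single order of mice. Of the 7, 3 were highest in mouse 1 (Neurod1, Neurod2 and Neurog2), where 25.5% of single-gene probe sets above the limit were, and 3 were lowest in mouse 2 (Neurod1, Neurog2 and Eomes), where 11.6% were. These shares pool all levels. At the level of Neurog2 the median deviation was itself highest in mouse 1 (0.08, 0.04 and -0.12 in mice 1 to 3). Neurod6 and Emx2 had the order of mouse 1, mouse 3 and mouse 2, which 42% of single-gene probe sets above the limit shared. The order of Neurod6, Neurod2 and Eomes was kept when the arrays were quantile normalized or centred on their medians. The order of the others shifted under 1 or both: Neurod1 read 10.81, 10.55 and 10.81 after centring, Emx2 read 8.20 in both mice 2 and 3 after centring, Pax6 became lowest in mouse 2 under both, and Neurog2 became highest in mouse 3 after quantile normalization. The share of all single-gene probe sets above the limit that were lowest in mouse 2 was itself 31% after quantile normalization and 24.4% after centring.

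The bright Neurod genes were also set against each other within each array, which takes off a shift shared by the whole array. Shifts that depend on level remain in such a difference, so genes near background were left out. Neurod2 minus Neurod6 was -0.31, -1.51 and -1.38 on the log2 scale in mice 1 to 3, so the ratio of these sister genes differed up to 2.30-fold between mice, and 2.28-fold after quantile normalization, with mouse 1 apart from the others. Neurod1 minus Neurod6, at 0.58, -0.63 and -0.21, differed up to 2.32-fold, and 2.33-fold after quantile normalization. Neurod1 minus Neurod2 was 0.89, 0.88 and 1.18, a difference of up to 1.23-fold under both. The probes of the genes differ, so only the change of such a difference across mice can be read, and it was not tested.

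The 5 single-gene probe sets above the limit with deviations nearest to those of Neurod6 over the 3 arrays were those of 4921524J17Rik, Pdcd10, Fam241a, Vrk1 and Ssbp1, at Euclidean distances from 0.029 to 0.049 on the log2 scale. Pdcd10, for one, was at 8.55, 9.50 and 9.24 in mice 1 to 3. With 3 arrays such likeness is easily met, and 30 single-gene probe sets lay within 0.1 of Neurod6.

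The bHLH relatives, partners and antagonists of these genes were measured on the same arrays. Of 11 measured neurogenic bHLH relatives 6 exceeded the limit in every mouse, beside 74.7% of single-gene probe sets, a difference that was not tested. The count was 8 with the limit at the 90th percentile, 5 at the 99th and 7 without mouse 3. Those above it were the oligodendrocyte factors Olig1 (11.30 ± 0.02, n = 3) and Olig2 (9.59 ± 0.10), Olig3 (8.78 ± 0.09), Nhlh1 (8.02 ± 0.12), Nhlh2 (7.37 ± 0.19) and Atoh7 (8.70 ± 0.16). Atoh7 is best known from the retina, so a value above the limit is no proof that neocortical cells use the gene. The relatives Neurog1 (6.58, 6.65 and 6.62 in mice 1 to 3), Ptf1a (4.81, 5.44 and 4.75) and Bhlhe23 (6.33, 5.71 and 5.26) were under the limit on every array. Neurod4 exceeded it on 1 array (6.72, 6.48 and 6.79) and Neurog3 on 2 (6.89, 7.18 and 5.84).

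Neurod and Neurog proteins bind DNA as dimers with E-proteins, and the Id proteins, which lack the DNA-binding region, tie those partners up. All 12 measured E-protein and antagonist genes were above the limit, beside 74.7% of single-gene probe sets. With the limit at the 99th percentile 11 were, beside 61%. The E-protein genes Tcf3, Tcf4 and Tcf12 stood at 9.09 ± 0.08, 11.08 ± 0.18 and 10.53 ± 0.05 (n = 3). The Id genes differed in spread: Id4 read 10.55, 10.56 and 10.57 in mice 1 to 3, while Id2 read 11.53, 12.17 and 12.01 and Id3 read 9.62, 10.16 and 9.06. Id2 and Id3 had unadjusted p-values of 0.0418 and 0.0017 and adjusted p-values of 0.931 and 0.411 in limma's model, so neither passed. Id2 was lowest in mouse 1 and Id3 in mouse 3. Of the 12 genes 8 were lowest in mouse 1, as were 53.4% of single-gene probe sets above the limit.

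All 13 measured pallial patterning and identity factors were above the limit, beside 74.7% of single-gene probe sets. With the limit at the 99th percentile 10 were, beside 61%. Lhx2 was at 10.62 ± 0.22, Gli3 at 8.72 ± 0.21, Dmrta2 at 10.80 ± 0.16 and Dmrt3 at 8.22 ± 0.46 (n = 3). Dmrt3, a factor of medial pallial progenitors, read 8.66, 7.74 and 8.26 in mice 1 to 3 (unadjusted p = 0.0308, adjusted p = 0.906 in limma's model). Its lowest value, in mouse 2, was under the 99th percentile limit of that array (7.78). Of the 13 factors 2 were lowest in mouse 2, where 11.6% of single-gene probe sets above the limit were, and 9 were highest there. All 7 measured subpallial factors, which specify interneurons and striatal neurons, were above the limit at the 95th percentile and at the 99th. Gsx1 was at 8.37 ± 0.07, Gsx2 at 10.38 ± 0.11, Dlx1 at 9.44 ± 0.17 and Dlx2 at 8.58 ± 0.21. Of 7 measured genes of intermediate progenitors, the stage that Eomes marks, 6 were above the 95th percentile limit and 5 above the 99th. Insm1, a zinc-finger factor of that stage, read 9.64, 8.99 and 9.30 in mice 1 to 3, Gadd45g 8.85, 9.33 and 9.33, and Dll3 8.45, 8.03 and 8.02. The Notch ligand gene Dll1 exceeded the 95th percentile limit on 2 arrays (7.36, 7.10 and 6.57).

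The cell types that could hold these factors were checked through their markers. All 5 measured markers of excitatory neurons were above the limit. Slc17a7, the vesicular glutamate transporter of cortical neurons, was at 12.90, 12.98 and 12.78 in mice 1 to 3. Slc17a6 read 11.34, 11.11 and 11.19. Of the 5 genes 3 were lowest in mouse 1, as were 53.4% of single-gene probe sets above the limit. Among them were Camk2a at 12.65, 12.93 and 12.86 and Nrn1 at 12.40, 12.89 and 12.72. All 6 radial glia and stem cell genes, all 5 genes of immature neurons and all 5 of astrocytes were above the limit. So were all 6 of Cajal-Retzius cells, all 6 of olfactory bulb neurons and 3 of 5 genes of dividing cells. Mki67, a protein of cycling nuclei, read 6.42, 7.02 and 7.01 and exceeded the limit on 2 arrays, and Bub1 read 6.37, 6.02 and 6.20 and exceeded it on none. Of the dentate granule genes 4 of 5 were above the limit, with Tdo2 under it at 5.41, 5.77 and 5.51. All 6 cerebellar granule, all 4 striatal and all 6 meningeal genes were above it. Over all single-gene probe sets 74.7% were, so passing the limit does not show that a cell type was present. At the 99th percentile limit (61% of all) 3 Cajal-Retzius, 4 olfactory bulb, 2 dentate and 2 dividing cell genes stayed above. There 5 radial glia and 5 meningeal genes did too, and the counts of the other marker lists did not change. Of all list genes, 0 passed the excess-variance test at an adjusted p under 0.05 in limma's model.

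Several marker lists held genes with the order of mice seen in Neurod6 and Emx2. All 4 striatal genes had mouse 1 lowest, mouse 3 between and mouse 2 highest, and their summed intensity was 9895, 14685 and 13694 in mice 1 to 3. Of the meningeal genes 4 of 6 had that order, with sums of 9547, 14762 and 10810, and of the radial glia genes 3 of 6, with sums of 6846, 9643 and 9105. Fabp7, a lipid-binding protein of radial glia and astrocytes, read 10.94, 11.82 and 11.73 (unadjusted p = 0.00316, adjusted p = 0.519 in limma's model), and Sox2 read 10.57, 11.22 and 10.95. Other radial glia genes went otherwise, with Nes at 7.70, 7.51 and 7.46, highest in mouse 1, and Vim at 10.67, 10.73 and 10.98, highest in mouse 3, while Hes5 was lowest in mouse 3 at 9.78, 10.03 and 9.68. Of the astrocyte genes 4 of 5 were lowest in mouse 1, as 53.4% of single-gene probe sets above the limit were, and 3 of 5 were after quantile normalization (41.2%) or centring (59%). None had the order of Neurod6, and their sums were 14707, 16300 and 16675. The excitatory neuron sums were 24851, 28851 and 26378, with 3 of 5 genes in that order. Over all single-gene probe sets above the limit 42% had it. After quantile normalization the order held for 4 striatal, 4 meningeal, 2 radial glia and 1 excitatory genes (22.6% of all), and after centring for 2, 4, 2 and 2 (25.1% of all). No marker in these lists was at 0, and their part in the spread of Neurod6 and Emx2 was not tested.

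Other lists held genes with the order of Neurod1 and Neurog2, lowest in mouse 2, then mouse 3, then mouse 1, an order that 8.05% of single-gene probe sets above the limit had. Neurod1 and Pax6 are also expressed by cerebellar granule neurons. Of the 6 cerebellar granule genes 4 had this order, with sums of 7582, 7087 and 7366 in mice 1 to 3. Pax6 did not have this order under any scaling. After quantile normalization 6 cerebellar genes had this order (21.8% of all) and after centring 2 (13.2% of all). Neurog2 itself lost the order after quantile normalization, and Neurod1 after centring. Gabra6, a receptor subunit typical of cerebellar granule neurons, read 9.67, 9.35 and 9.36. Cbln1, the brightest of the 6, went otherwise at 11.60, 11.66 and 11.67. Eomes is also expressed by Cajal-Retzius cells and by mitral and tufted cells of the olfactory bulb. The Cajal-Retzius genes summed to 2980, 2922 and 2772, with 2 of 6 in the order of Neurod1 and Neurog2. The olfactory bulb genes summed to 6169, 6614 and 7247, with 3 of 6 in that order. After quantile normalization 2 Cajal-Retzius and 2 olfactory bulb genes had it (21.8% of all), and after centring 2 and 1 (13.2% of all). Eomes itself had another order, mouse 2, then mouse 1, then mouse 3. In these lists only Ebf3, a Cajal-Retzius gene, had that order as deposited, at 8.89, 8.78 and 9.05 in mice 1 to 3. The share of all probe sets with that order was not counted. The dentate granule sums were 1396, 1551 and 1369, those of dividing cells 1409, 1512 and 1509, and those of immature neurons 11489, 12089 and 11559. Again no marker was at 0, and the part of these cells in the values of Neurod1, Neurog2 and Eomes was not tested.

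**Figure D4:**
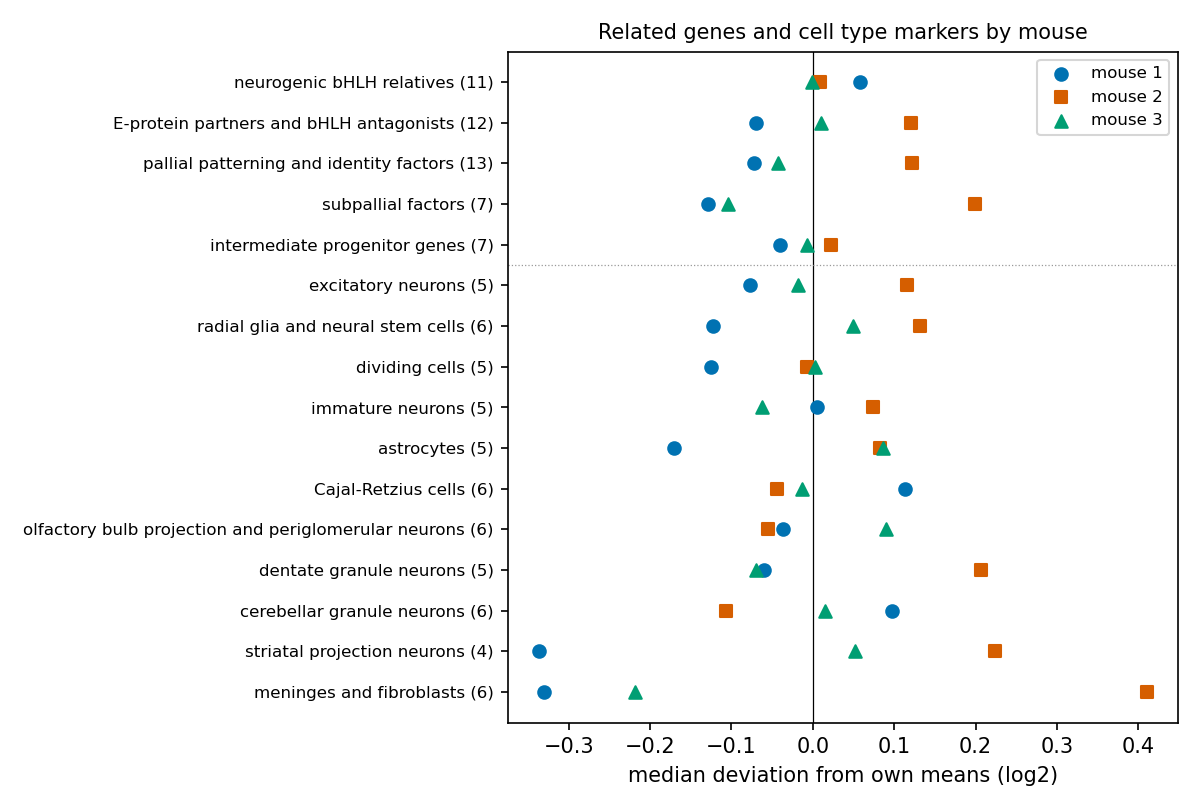
Median deviation of the measured genes of each list from their own means in each mouse, on the log2 scale, with the number of measured genes in brackets and the related gene lists above the dotted line. Meningeal and striatal markers are spread most, between -0.33 and 0.41 and between -0.34 and 0.22.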

How the data were processed

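The deposited table holds linear probe set intensities, 1 array for each of 3 animals. Total RNA was extracted with Trizol and labelled with biotin by an Affymetrix whole-transcript assay, per the labels' protocols. The submitters' processing notes name Affymetrix Power Tools and the genome build mm8. How background was corrected and probe sets normalized and summarised is not given in the sources used here. Array medians were 248, 257 and 231, so differences in brightness remain.

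Log2 was taken with no pseudocount. Of the probe sets 989 had several symbols and 7245 are unnamed here. A list gene with several probe sets was read from its brightest. The variance over the 3 arrays was tested with limma 3.58.1 in R 4.3.3 (fitFDistRobustly with a trend on the mean, upper tail of F, Benjamini-Hochberg over all 13822 probe sets above the limit). It was first run on simulated data, with SDs widened more than that of any measured member was relative to its level. That run does not show whether spreads of the members' size would be found. Each animal had 1 array, so animal and array differences cannot be told apart, and the number of arrays limits the precision. The genes and lists were chosen with earlier results of these data known. All measured members are named, with the list genes under the limit on any array and up to 4 others in the written order of their list, some of them left out for brevity. Olig2, Olig3, Id2, Id3, Id4, Hes5, Fabp7 and Ebf3 were named after their values were seen. Alternatives left out each mouse or changed the scaling, the pseudocount, the limit, the filter or the variance model.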

Additional observations from a re-analysis of the deposited data

How the results depend on the processing

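No paired analysis was possible because the arrays form 1 group. The number of the 7 genes past the excess-variance test was 0 in each of 11 other settings, and the adjusted p of Neurod6 in limma's model ran from 0.444 to 0.991 over 12 settings. All 7 genes stayed above the limit in 7 other settings, and 4 did with the limit at the 99th percentile. The number of probe sets past the variance test was 9, and between 10 and 26 when 1 mouse was left out. It was 2 after quantile normalization, 5 with the limit at the 99th percentile and 18 with all probe sets tested. The cause of these shifts was not tested. Relative to level-matched probe sets, the SD of Neurod6 was above at least 92.8% of them in each of 6 settings. The places of Neurod1, Neurod2, Pax6 and Neurog2 moved with scaling, that of Neurod1 from 29.8% to 82.2% after quantile normalization. For the genes near the limit, signal over background limits what the spread can show.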
